A study of Macaca fascicularis and Macaca mulatta and Papio anubis with 20 samples.

Results

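Small leucine-rich proteoglycans were followed across spatial transcriptomic sections of primate dorsal root ganglia, which house the cell bodies of sensory neurons. The 7 genes DCN, LUM, BGN, OGN, ASPN, FMOD and PRELP were taken by their symbols from the 22000 features counted in *Macaca fascicularis*, and all 7 were present in the feature tables. On a Visium slide each barcoded capture spot can hold several cells of different types, and every captured transcript is counted as a unique molecular identifier (UMI). Levels are counts per 1e6 UMIs under tissue (CPM). The counts come from 3′ tags, so levels of different genes are not ranked against each other.

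The 20 sections fall into 6 groups, each under its own title code and treated as 1 specimen, which the labels do not state. *M. fascicularis* gave a female and a male specimen in batch 1 and a female and a male specimen in batch 2, with 4 sections each. A further 2 sections were labelled *Macaca mulatta* and 2 *Papio anubis*, all of them in batch 2 and without a stated sex. All ganglia were bought fresh frozen and cut at 10 µm with 100 µm between sections. Neither ages nor treatments are given in the labels, and the number of animals behind a title code is not stated. What "batch" stands for is not explained. Ensembl prefixes ran against 2 of the species labels, with *P. anubis* identifiers in sections labelled *M. mulatta* and the reverse, so values are given for sections labelled with a species. The *M. fascicularis* sections held 1136433 to 7073134 UMIs, against 190376 and 264661 in the sections labelled *M. mulatta* and 595020 and 12595205 in those labelled *P. anubis*. The neuronal marker list, of which 13 of 15 genes were in the *M. fascicularis* features, summed to between 20367 and 36920 CPM in these sections.

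Small leucine-rich proteoglycans are secreted proteins with a core of leucine-rich repeats, and most carry glycosaminoglycan chains. They bind collagen fibrils and set how fibrils assemble and how thick they grow, and several bind growth factors such as TGF-β. In peripheral nerve and ganglia they belong to the connective tissue around axons, cell bodies and vessels, where fibroblasts are a main source. Decorin (DCN), biglycan (BGN) and asporin (ASPN) form class I. Lumican (LUM), fibromodulin (FMOD) and prolargin (PRELP) belong to class II, and osteoglycin (OGN) to class III. In the RefSeq gene order of another *M. fascicularis* assembly (T2T-MFA8v1.1) DCN lies next to LUM, FMOD next to PRELP, and OGN and ASPN on either side of OMD, while BGN stands apart on the X chromosome.

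Levels of the proteoglycans were lower in batch 2 than in batch 1 of *M. fascicularis*, and LUM differed most. The 7 genes together made up 1199.7 ± 478 CPM in batch 1 and 318 ± 127 in batch 2 (SD over sections, n = 8 each). Of the 6 genes that passed the filter on low counts, 5 fell at an adjusted p under 0.05: LUM, OGN, BGN, PRELP and DCN. Over all 12650 features tested, 2.88% passed and 1.61% passed in the lower direction. The test was edgeR's quasi-likelihood test on the sums of the 4 specimens, with sex as a covariate and Benjamini-Hochberg adjustment over all features. With 2 specimens in each batch, sections add precision within a specimen but no further animals, and less RNA per cell cannot be told apart from fewer cells of a type.

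Of class I, DCN, the decorin core protein that coats collagen fibrils, measured 1224, 352, 817 and 908 CPM in the female sections of batch 1 (sections 1 to 4) and 510.0, 563, 949 and 499.8 in the male sections. In batch 2 it measured 299.8, 362, 260.3 and 348 CPM in the female sections and 123, 215, 405 and 133 in the male ones. The batches overlapped, since section 2 of the female specimen of batch 1 lay below 2 sections of batch 2. The fitted difference of DCN was -1.25 on the log2 scale (SE 0.24, edgeR adjusted p = 0.0419). DCN was the weakest of the 5 calls. It was lost without section 3 of either batch 1 specimen (edgeR adjusted p = 0.051 and 0.0545) and without male batch 2 section 1 (0.0781) or 2 (0.0832). Without the latter PRELP was lost too (edgeR adjusted p = 0.0517), which left 3 calls, and without sex in the model DCN, BGN and PRELP were lost (0.102, 0.0513 and 0.0972), which left 2.

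BGN, the closest relative of decorin, measured 64.6, 17.3, 32.3 and 49.6 CPM in the female sections of batch 1 and 26.5, 41.9, 34.2 and 28.7 in the male sections. In batch 2 its levels were 13.9, 8.55, 5.55 and 9.96 CPM in the female specimen and 3.11, 6.83, 12.3 and 3.52 in the male one. Every section of batch 2 lay below every section of batch 1. The fitted difference was -2.01 (SE 0.30, edgeR adjusted p = 0.016). ASPN, which binds collagen and TGF-β, was hardly captured, with 0 to 2 UMIs in each of the 20 sections. It did not pass the filter, and no difference in ASPN was detectable at this depth.

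Of class II, LUM, which with decorin shapes collagen fibrils, showed the widest gap. Its level was 289, 119.8, 476 and 445 CPM in the female sections of batch 1 and 152, 141, 406 and 269 in the male ones. In batch 2 it was 2.79, 16.04, 6.52 and 6.25 CPM in the female specimen and 8.08, 9.46, 14.3 and 6.16 in the male specimen. The lowest section of batch 1 was far above the highest of batch 2. The fitted difference was -4.93 (SE 0.28, edgeR adjusted p = 0.000194), and the ratio of mean levels was 42.1-fold in the female and 25.5-fold in the male specimens.

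PRELP, which anchors basement membranes to collagen, measured 171, 34.4, 95.9 and 151 CPM in the female and 48.0, 75.2, 138 and 75.1 in the male sections of batch 1. In batch 2 it measured 46.5, 26.0, 17.9 and 42.2 CPM in the female and 4.66, 15.2, 40.0 and 5.28 in the male sections. The batches overlapped through section 2 of the female specimen of batch 1. PRELP fell by 1.86 on the log2 scale (SE 0.28, edgeR adjusted p = 0.016). FMOD, which binds collagen and promotes its cross-linking, was sparse, at 2.76 to 11.03 CPM in batch 1 and 0.621 to 7.21 in batch 2. Its fitted difference of -1.26 (SE 0.52) did not pass, with an edgeR adjusted p of 0.243.

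OGN, the class III member, was at 57.8, 17.1, 50.4 and 47.0 CPM in the female sections of batch 1 and at 23.5, 42.5, 66.2 and 32.9 in the male ones. In batch 2 it was at 9.99, 7.84, 4.10 and 8.01 CPM in the female and 4.04, 8.93, 4.44 and 1.76 in the male sections. Its batches did not overlap, and the fitted difference was -2.60 (SE 0.30, edgeR adjusted p = 0.00702). BGN, LUM and OGN were thus the 3 genes whose sections did not overlap between batches in the lower direction, where 5.22% of the 13273 features with at least 20 UMIs did the same.

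**Figure D1:**
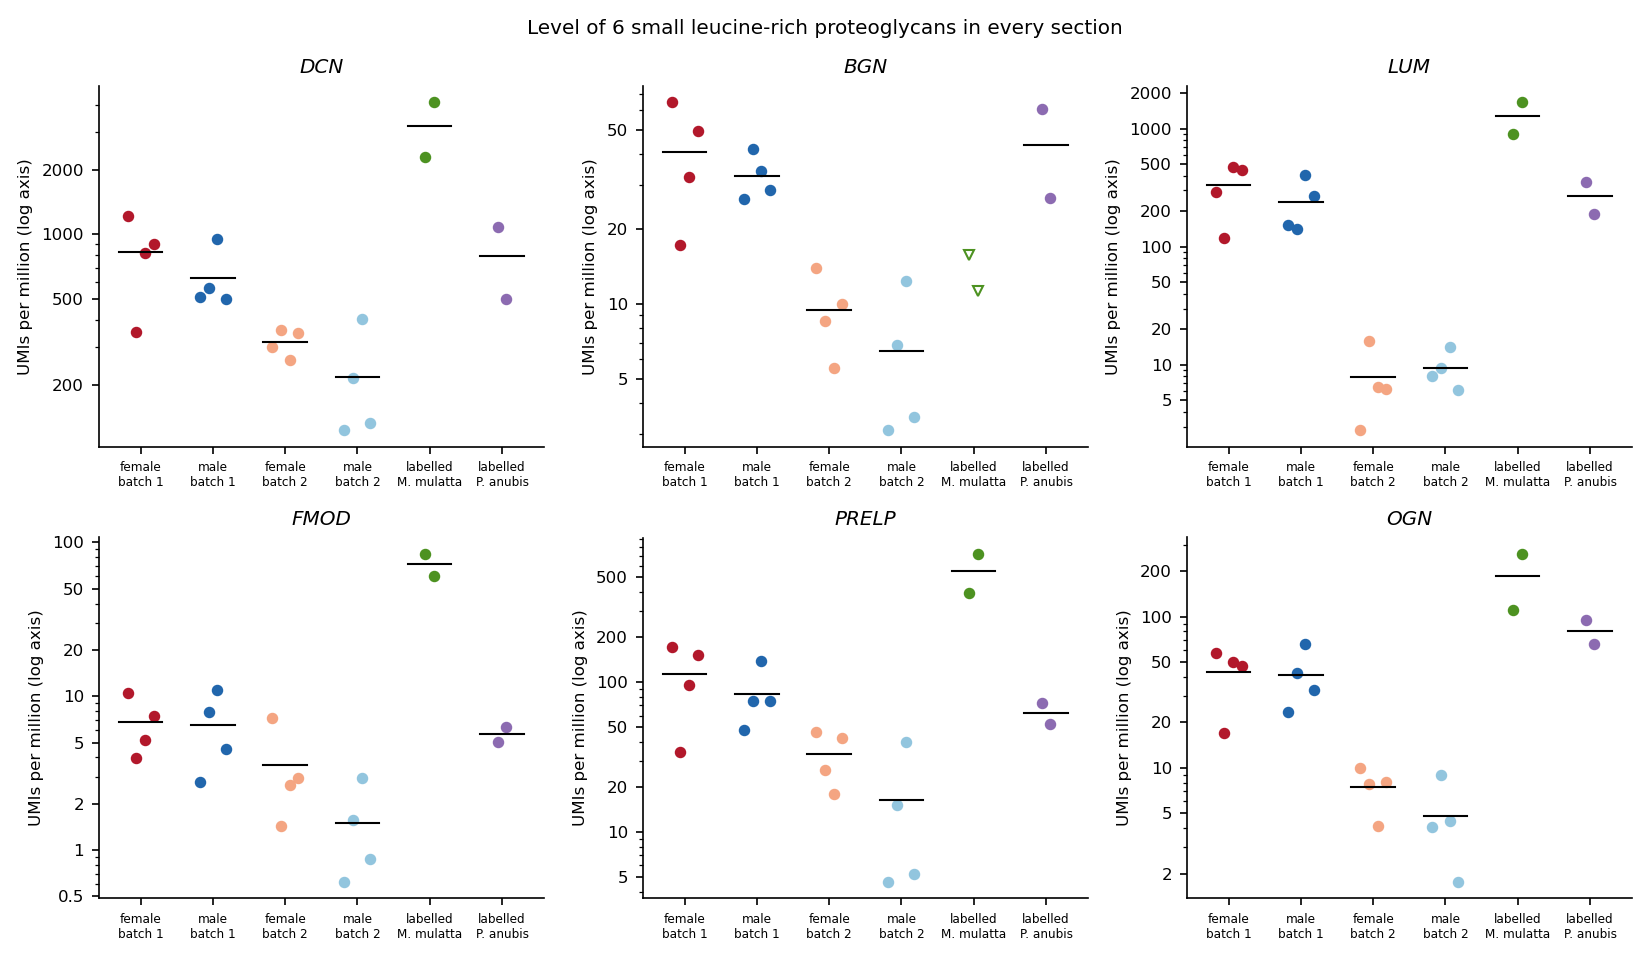
Level of 6 proteoglycan genes in each section, in CPM on a log axis, by group. Points are sections, bars are means, and open triangles mark the upper limit where a section held 0 UMIs. LUM in *M. fascicularis* lies between 119.8 and 476 CPM in batch 1 and between 2.79 and 16.04 in batch 2.

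LUM and DCN are neighbours in the genome, yet their ratio was not constant. LUM reached 23.6 to 58.2 UMIs per 100 DCN UMIs in the sections of batch 1 and 0.930 to 6.57 in those of batch 2. Within batch 1, sections 1 and 2 gave 23.6 and 34.0 in the female and 29.8 and 25.1 in the male specimen, whereas sections 3 and 4 gave 58.2 and 49.0 in the female and 42.7 and 53.8 in the male one. In both specimens the later-numbered pair of sections was higher, a split seen after the values were known and not tested. The sections labelled *M. mulatta* gave 39.6 and 40.7 and those labelled *P. anubis* 32.6 and 37.8, within the range of batch 1 although labelled batch 2. PRELP per 100 DCN UMIs spanned 9.42 to 16.7 in batch 1 and 3.79 to 15.5 in batch 2, and those ranges overlapped.

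**Figure D2:**
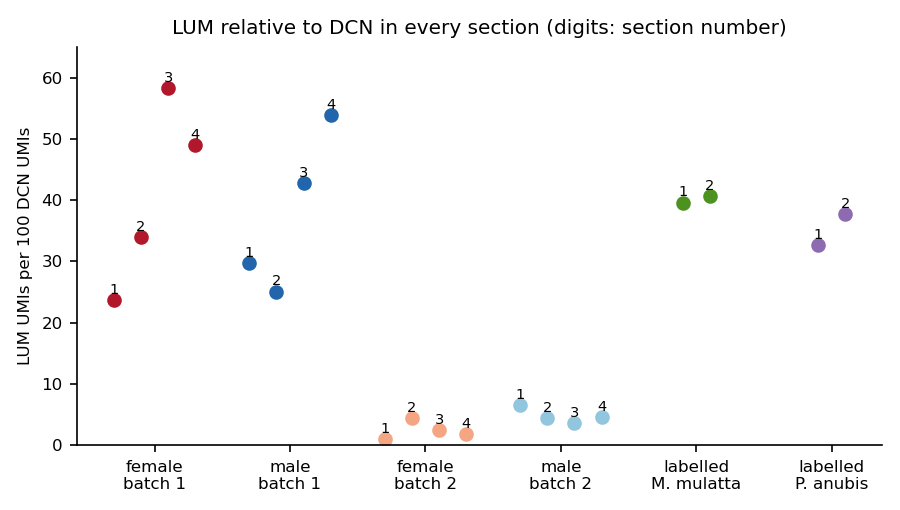
UMIs of LUM per 100 UMIs of DCN in each section by group, with the section number above each point. The 8 sections of batch 1 lie between 23.6 and 58.2, the 8 *M. fascicularis* sections of batch 2 between 0.930 and 6.57, and the 4 sections of the other labelled species between 32.6 and 40.7.

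Among other genes of the same matrix the calls lay mostly with the fibril collagens. Of 60 listed genes for further family members, fibril partners, bound growth factors and receptors, chain synthesis and processing, 40 were tested, of which 0 rose and 6 fell in batch 2. Of these 6, 4 were among 10 tested fibril partners, while 0 of 5 further family members and 0 of 8 chain synthesis genes were called. Their median log2 difference was -0.71, against -1.94 for the 6 proteoglycans and -0.01 for all features. COL3A1, a fibril collagen, fell by 7.0, COL1A1 by 5.73, COL1A2 by 4.90 and PCOLCE, the enhancer of procollagen processing, by 2.85 on the log2 scale (edgeR adjusted p from 0.00019 to 0.003). The 13 measured fibroblast markers, which share collagen genes with that list, summed to a median of 1346 CPM (623 to 2541) in batch 1 and 108 CPM (50.01 to 167) in batch 2. Myelinating Schwann cell markers went from a median of 5539 CPM (3278 to 9029) to 2387 (1916 to 3978), and adipocyte markers from 1318 (1005 to 1559) to 3346 (2258 to 5929). The adipocyte sum rests on part of its 8 genes. ADIPOQ, CIDEC, LEP and CIDEA had 0 UMIs in the section with the highest sum, male batch 2 section 1. Endothelial markers were at 288 CPM (210.2 to 367) and 249 (222 to 449). Perineurial markers, of the cells that sheathe nerve fascicles, went from 270.0 CPM (178 to 362) to 126 (72.2 to 179.7), and smooth muscle markers from 463 (235 to 1167) to 304 (144 to 551). The part of these cell types in the change was not tested. Within *M. fascicularis* the deposited matrices came from Space Ranger 2.0.0 in batch 1 and 2.1.0 in batch 2, so batch, animals and software version cannot be told apart.

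Between the sexes 0 proteoglycans passed, and 0 of 12650 features did (0% called). At an unadjusted p under 0.05 edgeR's quasi-likelihood test gave 169 features, and DESeq2 and limma-voom also called 0 after adjustment. All 6 tested genes were fitted higher in females, by 0.29 (LUM) to 0.73 (PRELP) on the log2 scale, with edgeR adjusted p = 0.998 throughout. PRELP had the lowest unadjusted p in that edgeR test, 0.0266. In counts simulated for the batch term of the same fit, 18% of 2-fold changes were recovered, so differences of this size could be missed. Females and males were fully separated, section by section, for 0.0527% of 13273 features and for 0 of the proteoglycans. The ratio of mean levels, female over male, was 1.31 for DCN in batch 1 and 1.45 in batch 2, but for LUM it was 1.37 in batch 1 and 0.831 in batch 2.

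Across the labelled species, levels are described without a test, since each rests on 1 specimen. In the sections labelled *M. mulatta* DCN was at 2295 and 4107 CPM, LUM at 909 and 1670.1, PRELP at 394 and 718, OGN at 110.3 and 261 and FMOD at 84.0 and 60.5. Each of these 5 genes was higher there than in every section of *M. fascicularis*. BGN was the exception, with 0 UMIs in both sections, which allows up to 15.8 and 11.3 CPM. The highest level of BGN in *M. fascicularis*, 64.6 CPM, lies above these limits, and 6 of its 8 sections in batch 2 lie below both. Per 100 DCN UMIs, BGN stood at 2.13 to 7.45 in *M. fascicularis* and at 5.59 and 5.36 in the sections labelled *P. anubis*, against 0 BGN beside 1524 DCN UMIs in those labelled *M. mulatta*. Each label also had its own feature table, so label and feature table cannot be told apart for BGN. In the sections labelled *P. anubis* DCN was at 1082 and 499 CPM, LUM at 353 and 188, BGN at 60.5 and 26.8 and PRELP at 72.3 and 52.6, all within the range of batch 1. OGN, at 95.8 and 66.1 CPM, reached above that range in 1 section. Over the 13088 symbols shared by the 3 feature tables, the summed level of the 7 genes was 10385 ± 4174 CPM in the sections labelled *M. mulatta* (SD, n = 2), 2295 ± 1049 in those labelled *P. anubis* (n = 2) and 401 to 2074 in the 4 *M. fascicularis* specimens. The sections labelled *M. mulatta* had a median of 62 and 61 UMIs per tissue spot, with fibroblast markers at 2563 and 4251 CPM and neuronal markers at 15249 and 6612 CPM. The part of that shallow capture in these levels was not tested.

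Within the *M. fascicularis* ganglia the proteoglycans were low where neuronal transcripts were high. Neuron-high spots were, in each section, the 25% of spots with the largest share of UMIs from the neuronal list, which holds none of the 7 genes. Section 3 of the male specimen of batch 2 had no spot matrix, so no result by spot, class or edge includes it. That section held 820 of the 1776 DCN UMIs of its specimen. Of the 6 genes tested, 6 fell in these spots, against 42.1% of 12135 features called and 22% called lower. DCN measured 399, 327, 166 and 96.1 CPM in neuron-high spots and 1015, 824, 465.5 and 169 in the other spots (female and male of batch 1, then female and male of batch 2). LUM measured 223, 147, 5.45 and 5.43 CPM against 455, 316, 11.3 and 9.21. Both genes were lower in the neuron-high spots of all 4 specimens. FMOD fell by 1.92 on the log2 scale (SE 0.23), PRELP by 1.45 (0.12), OGN by 1.39 (0.13), DCN by 1.21 (0.08), BGN by 0.96 (0.11) and LUM by 0.95 (0.07), with edgeR adjusted p from 6.8e-09 to 5.9e-06. None of the 6 differences varied detectably with batch (edgeR interaction, adjusted p from 0.3 to 0.999). Only 0.033% of features passed that interaction.

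Of 37 other listed genes tested, 22 fell in neuron-high spots and 3 rose, with a median log2 difference of -0.63, against -1.30 for the proteoglycans and -0.04 for all features. Among them 4 of 5 further family members and 7 of 9 fibril partners fell and 1 family member rose, whereas of 8 chain synthesis genes 2 fell and 1 rose. The largest falls were BMP4, a growth factor bound by biglycan, by 2.05, ELN, elastin, by 1.98, COL3A1 by 1.56 and OMD, the osteoglycin neighbour osteomodulin, by 1.54 (edgeR adjusted p from 5.6e-09 to 0.029). Neuron-high spots held more UMIs, 5901 per spot against 2396. With spots thinned to 500 UMIs FMOD no longer passed (edgeR adjusted p = 0.0618), while the other 5 fell by 1.32 (LUM) to 2.27 (OGN). Of 8268 features 19.8% passed after thinning.

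In vessel-high spots, the 25% richest in endothelial and smooth muscle transcripts, all 6 tested genes rose, against 30.7% of 10994 features called and 17% called higher. FMOD rose most, by 3.69 on the log2 scale (SE 0.26), from 3.01, 3.09, 1.72 and 0.390 CPM in the other spots of the 4 specimens to 33.5, 38.0, 32.6 and 2.84 in vessel-high spots. The vessel-high levels of FMOD rest on 51, 67, 31 and 3 UMIs. BGN rose by 2.63 (SE 0.17), from 24.5, 21.7, 6.78 and 3.12 CPM to 146, 141, 54.7 and 10.4. OGN rose by 2.63 (0.21), PRELP by 2.60 (0.24), DCN by 2.24 (0.25) and LUM by 1.62 (0.17), with edgeR adjusted p from 1.1e-06 to 7.4e-05. Every gene was higher in vessel-high spots in 4 of 4 specimens. Of 35 listed genes tested, 23 rose and 1 fell, the largest being BMP4 (2.93), ELN (2.77), PODN, the class V member podocan (2.5) and COL3A1 (2.49), with edgeR adjusted p from 2.5e-06 to 9.6e-05. Their median was 1.43, against 2.62 for the proteoglycans and 0.02 for all features. Vessel-high spots were shallow, with 1137 UMIs per spot against 3987. With spots thinned to 500 UMIs all 6 still passed, at smaller sizes of 0.76 (LUM) to 2.28 (FMOD), where 14.9% of 8737 features passed.

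In myelin-high spots, defined in the same way from myelinating Schwann cell transcripts, 6 of 6 tested genes rose, against 33.4% of 10966 features called and 17.1% called higher. LUM went from 309.8, 204, 7.52 and 7.22 CPM to 1063, 830.3, 22.2 and 15.5, a log2 difference of 1.78 (SE 0.17). PRELP rose by 1.81 (0.15), DCN by 1.68 (0.17), OGN by 1.62 (0.17), FMOD by 1.17 (0.34) and BGN by 1.16 (0.18), with edgeR adjusted p from 1.6e-07 to 0.0147. Of 34 listed genes tested, 21 rose and 3 fell. COL12A1 rose by 2.81, COL3A1 by 2.38, OMD by 2.16 and COL5A1 by 2.1 on the log2 scale (edgeR adjusted p from 1.4e-07 to 0.024). Their median was 1.22, against 1.65 for the proteoglycans and 0.01 for all features. These calls changed with depth. Myelin-high spots held 786 UMIs per spot against 4104. With spots thinned to 500 UMIs, LUM alone passed, at 1.19 (SE 0.18, edgeR adjusted p = 0.0013), beside 5.42% of 8286 features. DCN, BGN, OGN and PRELP were then at 0.48 to 0.66 (edgeR adjusted p from 0.104 to 0.367), and FMOD was not tested. Before thinning, FMOD also lost its call without either specimen of batch 1 (edgeR adjusted p = 0.0863 and 0.189), with at least 1000 UMIs a spot (0.101) and with the richest 10% (0.186) or 50% (0.0623) of spots. It had 0 UMIs in the myelin-high spots of the male of batch 2. The interaction of class and batch passed for 0 of the 6 genes in myelin-high spots, where 0.556% of features passed, and for 0 in vessel-high spots, where 0% did and 526 features had an unadjusted p under 0.05 (edgeR). Myelin-high and vessel-high spots overlapped, with 40.3% of each class in the other.

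In fibroblast-high spots the fitted differences were 1.51 (LUM) to 2.96 (FMOD) on the log2 scale, but 0 of 6 tested genes passed (edgeR adjusted p from 0.195 to 0.318), and 0.0259% of 11605 features did. All 6 had an unadjusted p under 0.05 in the same edgeR test. The spread between specimens followed batch. DCN was at 3544 CPM in fibroblast-high spots against 495 in the others in the female and at 2852 against 382 in the male specimen of batch 1. In batch 2 it was at 401 against 272 CPM in the female and 200.1 against 137 in the male specimen. LUM was 4.48-fold and 4.86-fold higher in batch 1 and 1.24-fold and 1.5-fold in batch 2. The interaction of class and batch passed for all 6 genes, as it did for 35.5% of features, and ranged from -2.82 (FMOD) to -1.68 (PRELP) on the log2 scale (edgeR adjusted p from 6.3e-22 to 3.0e-06). With 2 specimens in each batch, these p-values lean on variance shared across features. The fibroblast list was itself lower in batch 2, so there a spot entered the class on far fewer UMIs of that list. Fibroblast-high spots held 2349 UMIs per spot against 3521, pooled over the 4 specimens. By the DCN counts and levels, the class held a larger share of all UMIs in both specimens of batch 2 than in those of batch 1. It thus took in unlike spots in the 2 batches. The part of these differences in the interaction was not tested. Other settings changed the call. DESeq2 called 6 of 6, beside 189 of 11605 features. A smaller class of the richest 10% of spots also gave 6, beside 756 of 10882 features. So did spots thinned to 500 UMIs, where 17.8% of 9238 features passed. Spots with at least 1000 UMIs gave 4, where 0.661% of 11187 features passed. Leaving out the female specimen of batch 2 gave 3, beside 50 of 10749 features. Of the fibroblast-high spots 43.1% were also vessel-high.

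**Figure D3:**
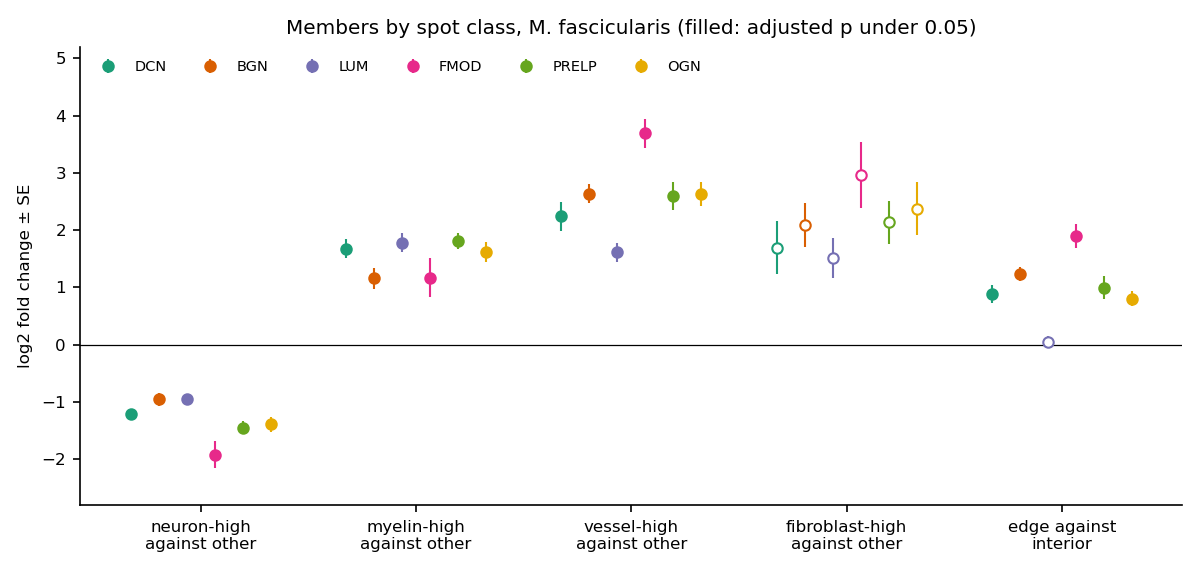
Log2 fold change of each proteoglycan gene between spot classes in *M. fascicularis*, with bars of 1 SE derived from the F statistic of the edgeR test. Filled points passed at an adjusted p under 0.05. The genes lie below 0 in neuron-high spots and above 0 in myelin-high and vessel-high spots, the fibroblast-high points did not pass, and LUM lies at 0.05 at the tissue edge.

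At the outer rim of the tissue 5 genes were higher than inside, and LUM did not pass. Edge spots were those next to at least 1 position off the tissue, a class set without regard to expression. Of them 35.6% were also vessel-high and 33.2% fibroblast-high. Those classes took in 4656 and 3931 of all 18594 spots. Of 6 tested genes 5 rose at the edge, against 3.46% of 11047 features called and 2.65% called higher: FMOD by 1.89 on the log2 scale (SE 0.21), BGN by 1.23 (0.12), PRELP by 1.00 (0.20), DCN by 0.89 (0.16) and OGN by 0.81 (0.13), with edgeR adjusted p from 2.3e-05 to 0.0095. LUM differed by 0.05 (SE 0.09, edgeR adjusted p = 0.857). BGN was at 58.3, 67.8, 21.1 and 6.15 CPM in edge spots against 29.7, 24.9, 7.24 and 3.73 in the interior. LUM was at 342, 279.8, 9.41 and 4.92 CPM at the edge against 360.4, 233, 7.98 and 9.21 inside. BGN was thus higher at the edge in every specimen, as were DCN, FMOD and PRELP. OGN was higher there in 3 of 4, with 3.69 against 5.70 CPM in the male of batch 2, and LUM in 2 of 4. The male of batch 2 counts here on few edge UMIs: 2 of FMOD, 6 of OGN, 8 of LUM, 10 of BGN and 17 of PRELP. The differences per specimen share that limit. Per specimen, the log2 edge difference of BGN exceeded that of LUM by 1.29 ± 0.25 (SD, n = 4) and that of DCN exceeded it by 0.98 ± 0.46, in 4 of 4 specimens each. The exact two-sided sign-flip permutation test over specimens gave p = 0.125, the smallest that 4 specimens allow.

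PRELP was 1.32-fold and 1.78-fold higher at the edge in the specimens of batch 1. In batch 2 it was 4.55-fold higher in the female and 1.70-fold in the male specimen. The interaction of class and batch passed (edgeR 1.41, SE 0.22, adjusted p = 0.011, where 0.118% of features passed). The male specimen of batch 2 nevertheless lay within the range of batch 1. Of 33 listed genes tested, 10 rose at the edge and 0 fell, led by BMP4 (1.81), ELN (1.44), TGFB3 (1.37) and PODN (1.06), with edgeR adjusted p from 0.00089 to 0.043. Their median was 0.34, against 0.94 for the proteoglycans and 0.00 for all features. Under DESeq2 DCN (adjusted p = 0.257) and PRELP (adjusted p = 0.262) did not pass, and OGN did not once the male of batch 1 was left out (edgeR adjusted p = 0.0734).

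Counted inwards in grid steps from the nearest off-tissue position, levels fell within the first steps in 3 of the 4 specimens for DCN. In the female specimen of batch 2 DCN went from 821 CPM at step 1 to 312 at step 2 and 219 at step 3, and stayed near that level to the centre (221 at 8 or more steps). In the male specimen of batch 1 it went from 940.2 to 629 and 573 CPM. FMOD there went from 17.6 to 9.06 and 3.79 CPM over the same steps. LUM in the female specimen of batch 1 was at 343, 328 and 331 CPM over steps 1 to 3 and at 527 at 8 or more steps. The sections labelled *P. anubis* showed a like gradient, DCN at 2002, 949 and 609 CPM, BGN at 137, 51.9 and 21.8, and LUM at 285, 228 and 223. The sections labelled *M. mulatta* ran the other way, DCN at 2148, 2618 and 3831 CPM and LUM at 664, 945 and 1488. In the male specimen of batch 2, without its section 3, DCN was nearly level, at 167, 157 and 148 CPM.

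**Figure D4:**
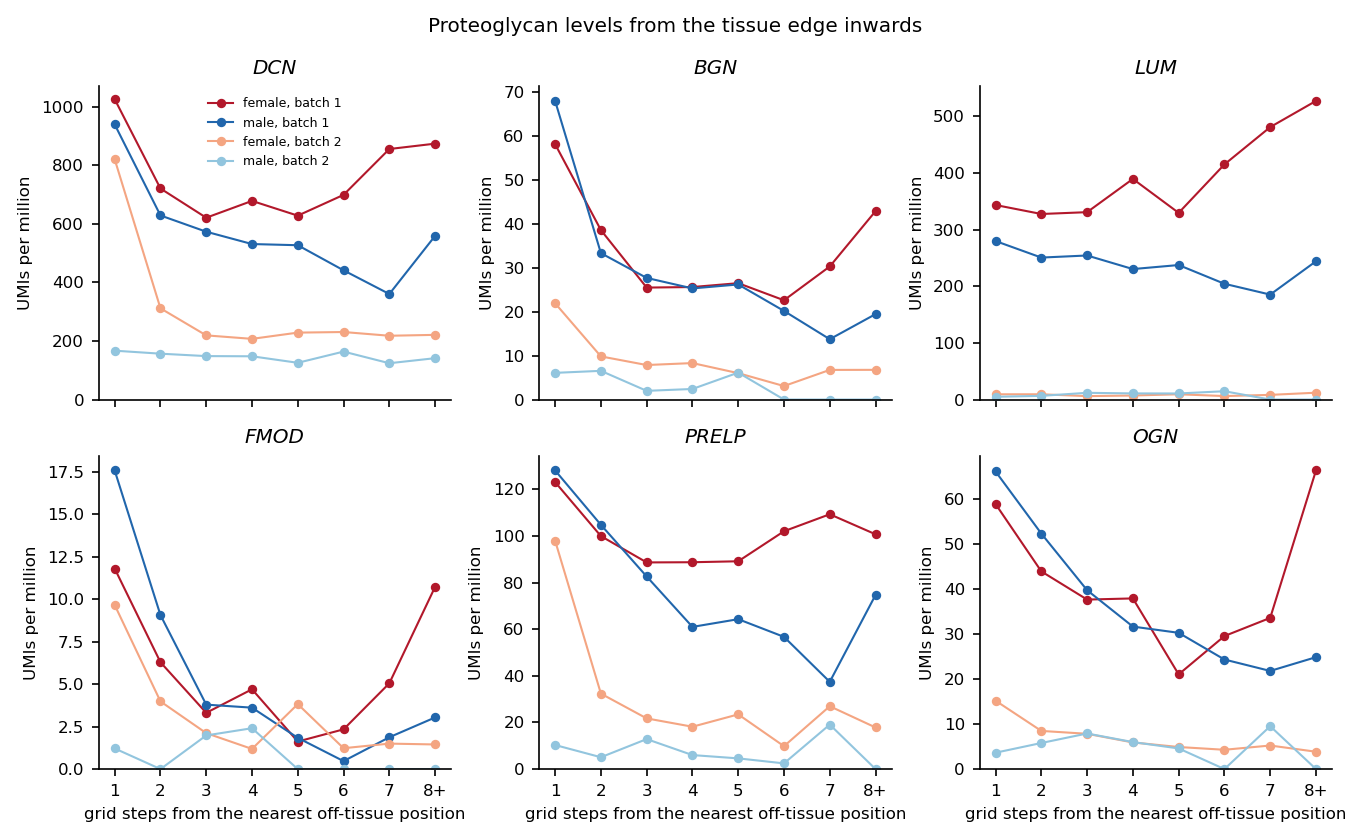
Level of 6 proteoglycan genes, in CPM, against grid steps from the nearest off-tissue position, for the 4 *M. fascicularis* specimens; each point pools the spots of a specimen at that step. BGN in the male specimen of batch 1 falls from 67.9 to 33.3 and 27.7 CPM over steps 1 to 3, while LUM there stays between 185 and 279.8 CPM at all steps.

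Spots off the tissue also held UMIs, and where that RNA came from was not tested. In *M. fascicularis* these spots held 375 UMIs each next to the tissue and 61.7 elsewhere, against 2796 under tissue. Ranked over 8206 features by level off the tissue over level under it, the genes other than ASPN lay between percentile 94.1 (LUM) and 98.4 (OGN). Over the 15 *M. fascicularis* sections with spot matrices, DCN was captured at 9.10 UMIs per 100 off-tissue spots and at 143 per 100 tissue spots. As a share of the UMIs present DCN was higher off the tissue in each specimen, at 1089 CPM against 758 in the female and 1066 against 604 in the male of batch 1, and at 1203 against 322 in the female and 288 against 153 in the male of batch 2. Within the specimens of batch 1 the ratio, off tissue over tissue, was 1.25 and 1.25 for LUM, 1.44 and 1.76 for DCN, 1.40 and 2.28 for BGN, 1.68 and 1.71 for PRELP and 1.86 and 2.29 for OGN. In the female of batch 2 it was 1.61 for LUM, on 7 off-tissue UMIs, and 3.73 for DCN. In the sections labelled *M. mulatta* DCN was lower off the tissue, at 2038 CPM against 3349. The part of off-tissue RNA in the edge levels was not tested.

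The authors' deposited Moran's I, which scores how alike neighbouring spots are, gave DCN a median of 0.336 in the 8 sections of batch 1 and 0.118 in those of batch 2. In the authors' deposited tables DCN had an adjusted p under 0.05 in 8 and 7 of 8 sections, and its median percentile among the genes of a section was 99.8 and 99.5. LUM, by the authors' deposited tables, passed in 8 of 8 sections of batch 1 (median 0.175) and in 0 of 8 of batch 2 (median -0.00147). It rested on 7 to 90 UMIs per section in batch 2, against 466 to 3209 in batch 1. BGN, OGN and FMOD were sparse in batch 2 too, so a pattern there could be missed. The part of low counts in these scores was not tested. PRELP passed in 8 and 3 sections, BGN in 8 and 1, OGN in 7 and 1 and FMOD in 3 and 0, per the authors' deposited tables. Between 16.1% and 40.6% of the genes of a section passed in batch 1 and between 5.42% and 22.1% in batch 2. In the deeper section labelled *P. anubis* the authors' deposited values were 0.271 for DCN, 0.076 for OGN and PRELP, 0.067 for BGN, 0.0578 for FMOD and 0.0476 for LUM. In the shallower one the authors' deposited value passed for DCN alone (0.0391), and the other genes lay between -0.00119 and 0.00624. In the sections labelled *M. mulatta* DCN was at 0.0532 and 0.0149 in the authors' deposited tables, and it passed in the first.

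The genes tended to share spots. In spots thinned to 500 UMIs each, so that depth was equal, DCN had at least 1 UMI in 39.9% ± 11.2 (SD, n = 4 sections) of female and 36.6% ± 6.49 of male spots of batch 1, in 21.4% ± 6.08 of female spots of batch 2 and in 7.52% ± 2.20 (n = 3) of male spots of batch 2. LUM had one in 21.9% ± 9.41, 17.1% ± 6.55, 0.654% ± 0.460 and 0.273% ± 0.255. In the female specimen of batch 1, 60.7% of the spots with LUM also had DCN (exact binomial 95% interval 57.4 to 63.9), against 41.8% of all spots. This gave 1.4 times the spots expected if the genes were placed independently within each section, and 1.55 times in the male specimen. OGN with PRELP reached 2.05 and 2.72 times, BGN with PRELP 2.14 and 1.80, and BGN with OGN 1.37 and 2.86 times, the last on 7 and 14 spots. Pooled over the 4 specimens, the 10 pairs of DCN, LUM, BGN, OGN and PRELP ranged from 1.31 (LUM with BGN) to 2.43 (OGN with PRELP). FMOD, found in few spots, reached 1.75 and 1.78 times with DCN in batch 1 but 1.38 and 0.959 times with LUM, on 7 and 5 spots. The sections labelled *P. anubis* gave 1.52 for DCN with LUM, 2.42 for OGN with PRELP, 2.46 for DCN with FMOD and 0.886 for LUM with FMOD, the last on 4 spots. In the sections labelled *M. mulatta* only 40 spots reached 500 UMIs, and no ratio is read from them. Spots are not replicates, their classes share tissue regions, and these ratios have no test.

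**Figure D5:**
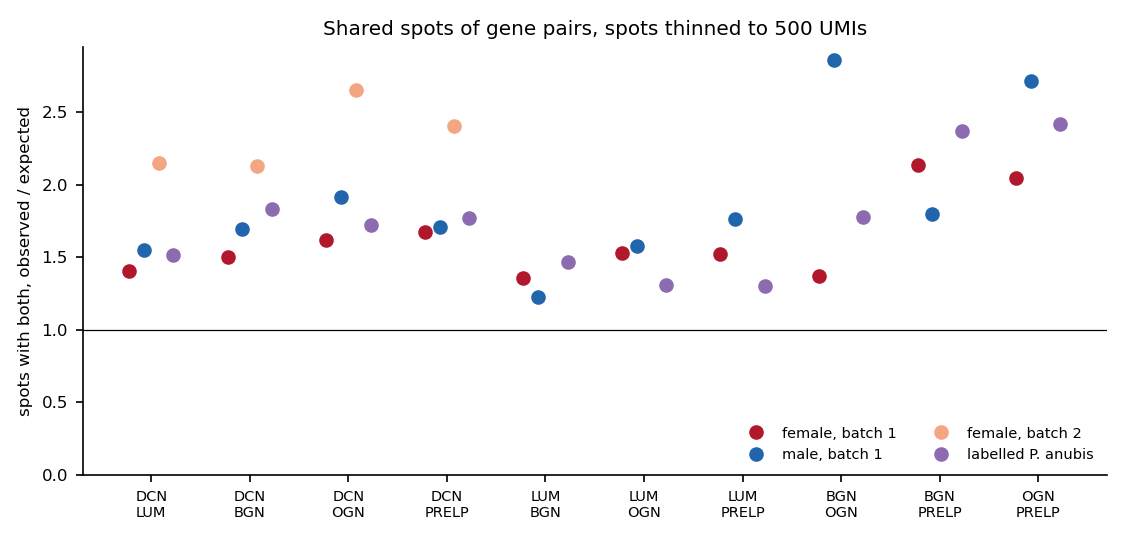
Spots holding both genes of a pair over the number expected from each gene's own frequency, in spots thinned to 500 UMIs; points are specimens or labelled species with at least 3 expected spots, and the line marks 1. Pairs with FMOD are not plotted; all pairs plotted lie above 1, between 1.23 (LUM with BGN, male, batch 1) and 2.86 (BGN with OGN, male, batch 1).

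Among 3856 other features with a symbol found in at least 5% of tissue spots of every specimen, IGFBP6, an insulin-like growth factor binding protein, followed DCN most closely over spots. The mean Pearson correlation of log-scaled UMIs was 0.35 over the 4 specimens, from 0.12 in the male specimen of batch 2 to 0.46 in the male specimen of batch 1. APOD, apolipoprotein D (0.32), PTGDS, prostaglandin D synthase (0.31), GSN, gelsolin (0.25), and TAGLN, transgelin (0.24), came next. IGFBP6 also ranked first for PRELP (0.23), OGN (0.16) and BGN (0.13). For LUM the first were APOD (0.20) and DCN (0.18), at 0.37 and 0.35 in the female specimen of batch 1 but 0.05 and 0.03 in the female specimen of batch 2. Spots share a library and depth, weak values in sparse counts are no finding, and these are descriptions without a test.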

How the data were processed

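Visium UMI counts per feature and spot were deposited as matrices for 19 sections. Per the file headers they came from Space Ranger 2.0.0 (batch 1 and the other labelled species) or 2.1.0 (*M. fascicularis* batch 2). The submitters' processing notes name Space Ranger and Mmul_10 for all samples, while the *M. fascicularis* identifiers carry that species' own Ensembl prefix, so the build is unsettled and no coordinates are given. Section 3 of the male specimen of batch 2 entered by its deposited table of counts only; spots of that section were not used here. Moran's I, a deposited score, and its p-values and adjusted p-values are the authors' own. Barcodes are fixed positions of the slide and recur in every section.

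UMI counts were summed per specimen, or per specimen and spot class (spots under tissue with at least 200 UMIs), and tested with edgeR 4.0.16 (TMM, filterByExpr, quasi-likelihood), with specimen as a block for spot classes. That test gives no SE, so each SE printed is the absolute log2 difference over the square root of its F statistic. The method was tested on simulated counts with known changes. The batch test recovered 18% of 2-fold and 93.8% of 4-fold changes, and 3.54% of its calls were false. For neuron-high spots the shares were 90% and 100%, with 5% of calls false. Batch differences near 2-fold were thus mostly missed. Alternatives used DESeq2 1.42.0 and limma 3.58.1. Exact binomial intervals and limits for 0 UMIs (3 counts) cover counting error only. The proteoglycans, gene lists and marker lists were chosen with earlier results of these data known. Named are the 7 genes, up to 4 called listed genes with the largest change per comparison, and the 5 features most like each gene found in at least 5% of tissue spots. Nothing states that sections are separate animals, so all p-values rest on these 4 specimens. For batch and sex they measure the spread that the model of both leaves between specimens. That spread has few degrees of freedom and leans on variance shared across features. For spot classes they measure how far the class difference varies between specimens, since specimen is a block. These fits too have few degrees of freedom and lean on variance shared across features. The interactions of class and batch do so most, with 2 specimens in each batch.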

Additional observations from a re-analysis of the deposited data

Results flagged for a closer look

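DCN in section 3 of the male specimen of batch 1, at 949 CPM, stood apart from the other 3 sections of that specimen, which lay between 499.8 and 563 CPM. The gap took up 0.859 of the range of the 4 sections. It was the only such value among 32 sets of 4 sections checked, and chance flags about 1 set in 20.

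The difference between fibroblast-high and other spots varied with batch for 6 genes. The edgeR interaction, batch 2 minus batch 1 on the log2 scale, was -2.82 for FMOD, -2.31 for OGN, -2.25 for DCN, -1.90 for BGN, -1.79 for LUM and -1.68 for PRELP, with adjusted p from 6.3e-22 to 3.0e-06. Every one of these folds was smaller in batch 2, and 35.5% of all features passed the same interaction.

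For PRELP the interaction of batch with the difference between edge and interior spots passed, at 1.41 (SE 0.22, edgeR adjusted p = 0.011). The female specimen of batch 2 had the highest ratio, 4.55-fold, and the male specimen of batch 2, at 1.70-fold, lay within the range of batch 1.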

How the results depend on the processing

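Single genes kept their direction under every alternative run, except LUM at the tissue edge, which was not called and turned to -0.10 without the male specimen of batch 1 (-0.10 to 0.18 when a specimen was left out), -0.0029 with an edge of 2 spots and -0.11 in spots thinned to 500 UMIs. Over all alternatives 146 of 156 single-gene results of the batch comparison kept both their direction and their side of the threshold. So did 156 for sex, 77 of 84 for neuron-high, 54 of 90 for fibroblast-high and 68 of 83 for myelin-high spots. The counts were 79 of 84 for vessel-high and 67 of 78 for edge spots, where the 3 reversed results, all of LUM, stayed uncalled.

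Between batches the count of proteoglycans called went from 5 to 2 without sex in the model and to 3 to 5 when a section was left out. Over all features 364 calls became 1279 with no filter on low counts, 196 without sex, and 115 to 942 when a section was left out, with 115 without male batch 2 section 1, 120 without male batch 2 section 2, 942 and 674 without female batch 1 section 4 and 1, and 564 without female batch 2 section 1. With sections as samples they became 4345, and FMOD passed too (edgeR adjusted p = 0.0231). Between sexes 0 calls became 67 with no filter and 8 with sections as samples.

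Section numbers recur in each specimen, but the deviations of same-numbered sections correlated above 0.1 in only 10 of 24 pairs (-0.203 to 0.518, over 6835 genes), and 3 of 16 sections correlated best with their own number. With that number as a replicate block and sections as samples, 4448 features were called between batches (FMOD edgeR adjusted p = 0.0311) and 5 between sexes. In the spot classes the block was the specimen, which gave both classes. With no replicate block the proteoglycans called went to 0 in neuron-high, 0 in myelin-high, 1 in vessel-high and 0 in edge spots, and all features called to 183, 469, 133 and 0 (152 at an unadjusted p), with 0 in fibroblast-high spots (527 at an unadjusted p, edgeR). With each section a replicate block, fibroblast-high spots gave 6 proteoglycans and 2950 features and edge spots 880 features.

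In fibroblast-high spots DESeq2 gave 6 proteoglycans and 189 features, no filter 4 and 75, at least 1000 UMIs a spot 4 and 74, the richest 10% of spots 6 and 756, thinning to 500 UMIs 6 and 1643, and a marker list without collagen genes 1 and 22. Leaving out a specimen gave 0 to 3 and 0 to 50, the highest without the female of batch 2. In neuron-high spots 5106 features became 3367 under DESeq2, 1633 after thinning and 3441 to 5399 without a specimen. In myelin-high spots thinning left 1 proteoglycan and 449 features, at least 1000 UMIs a spot gave 1709 features, and leaving out a specimen 5 to 6 and 1956 to 4523. In vessel-high spots 3370 features became 1302 after thinning, 1061 with the richest 50% of spots and 1145 to 4790 without a specimen. At the edge DESeq2 gave 3 proteoglycans and 203 features, no filter 711 features, thinning 244, and leaving out a specimen 4 to 5 and 162 to 522. The causes of these changes were not tested.

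Over symbols shared by the 3 feature tables the summed level was 2074 CPM (female) and 1595 (male) in batch 1, 622 in the female of batch 2, 10385 in sections labelled *M. mulatta* and 2295 in those labelled *P. anubis*, since fewer UMIs stand in the denominator. Without thinning the median overlap ratio over pairs went from 1.73 to 1.21. Depth limits ASPN and FMOD.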
